A study of Mus musculus with 92 samples.

Results

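Bone marrow cells that settled in a brain without microglia are compared here with microglia: the 6 libraries of bone marrow-derived microglia-like cells (BMD MLCs) against 7 libraries of unmanipulated microglia, 13 of the 92 libraries of the series. Libraries were chosen by their labels: all 6 BMD MLC replicates, and microglia replicates 1 to 7. Microglia replicates 8 and 9 were left out because replicate 8 stands apart from every other library of the comparison. The series uses macrophages grown from conditionally immortalized marrow progenitors (ER-Hoxb8) to replace microglia, with marrow cells as the primary counterpart. BMD MLCs came from wild-type marrow of FVB mice carrying a GFP transgene, injected into both brain hemispheres of FVB pups without the Csf1r gene at postnatal days 0 to 5. Those hosts have no microglia of their own, and their brains were taken 12 to 16 days after injection. The microglia came from uninjected wild-type FVB mice of matched age with an intact Csf1r gene. Both kinds of cells were sorted by FACS on CD45 and CD11B from perfused, homogenized brains, and RNA went into a low-input kit at 40 ng, or 8 uL where it could not be measured. Host, donor tissue and injection therefore differ together between the groups, and their parts in a difference cannot be told apart. The study calls the libraries biological replicates, but nothing in the labels says that each is a separate animal. The tests below therefore measure spread between samples.

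Microglia arise from yolk sac progenitors and renew themselves in the brain, while most other tissue macrophages can be replaced from marrow through monocytes. Both need signalling through the receptor CSF1R, and brain signals such as TGF-beta maintain the microglial program. That program includes purinergic receptors that sense ATP and ADP, the transcription factor SALL1, and a set of surface proteins rare on other macrophages.

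Values are the deposited log2 CPM (read counts scaled to library size), scaled by the authors across 27 libraries of brain cells and cultured macrophages; -3.62 is the lowest value and stands for no detected transcript. The log2 fold change (log2FC) is the mean of BMD MLCs minus the mean of microglia. DEGs are genes past 2 limits: a log2FC of 2 or more in size, and p under 0.05 after adjustment over all genes tested. Groups are given as the lowest, median and highest library, in log2 CPM, BMD MLCs first. The sorted populations carry the genes of the myeloid lineage in both groups: none of 11 core myeloid genes was a DEG in limma, at a median log2FC of 0.02. Cd68, a lysosomal protein of macrophages, was at 10.29, 10.63 and 11.02 in BMD MLCs and 10.31, 10.55 and 10.98 in microglia, overlapping throughout. Itgam, which encodes CD11B, was at 7.36 to 8.43 (median 8.01) against 9.30 to 9.82 (median 9.58), lower in all 6 BMD MLC libraries but short of the limit (log2FC -1.59, SE 0.18, adjusted p 5.91e-06). Ptprc, which encodes CD45, lay at 9.83 to 10.81 (median 10.29) in BMD MLCs and 8.23 to 9.71 (median 9.23) in microglia, higher in the former without reaching the limit (log2FC 1.12, SE 0.23, adjusted p 0.0017). In a bulk library, fewer cells of a type and less RNA per cell cannot be told apart.

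Several libraries stand apart. Microglia replicates 4 and 5 had Spearman correlations over all genes tested of 0.86 to 0.93 with the other 5 microglia, which had 0.95 to 0.98 among themselves. BMD MLC replicate 3 was at 0.87 to 0.92 with its group, against 0.92 to 0.98 among the other 5. BMD MLC replicates 1 and 2 had the lowest values of several genes below. Microglia replicate 8, not used, had a median correlation of 0.76 with microglia replicates 1 to 7 and 9493 genes above 1 CPM, where the 13 libraries used had 11088 to 11566. Replicate 9, left out with it, had a median correlation of 0.94 with the same 7 libraries and 11297 genes above 1 CPM. Between the groups the correlations ran from 0.76 to 0.87. BMD MLC replicate 3 was at 0.83 to 0.85 with microglia replicates 4 and 5 and at 0.76 to 0.80 with the other microglia. These are correlations across genes, which are not independent replicates. For genes described below, calls that change without these libraries are given for some of these fits, not for all. Counts and medians of gene lists also shift in these fits, and only some of these shifts are given; those alternatives were chosen after seeing the data.

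Of 11638 genes tested, 1161 were DEGs (9.98% of those tested): 652 were higher in BMD MLCs (5.6%) and 509 lower (4.37%). These shares are the background for the counts of each gene list below. The groups did not overlap for 1955 genes (16.8%), among them 501 of the higher and 419 of the lower DEGs. The median log2FC over all genes tested was -0.03. Without microglia replicates 4 and 5 there were 709 higher and 540 lower DEGs, and without BMD MLC replicates 1 and 2 there were 724 and 543. Leaving out microglia replicates 4 and 5 and BMD MLC replicate 3 together gave 674 and 522.

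**Figure D1:**
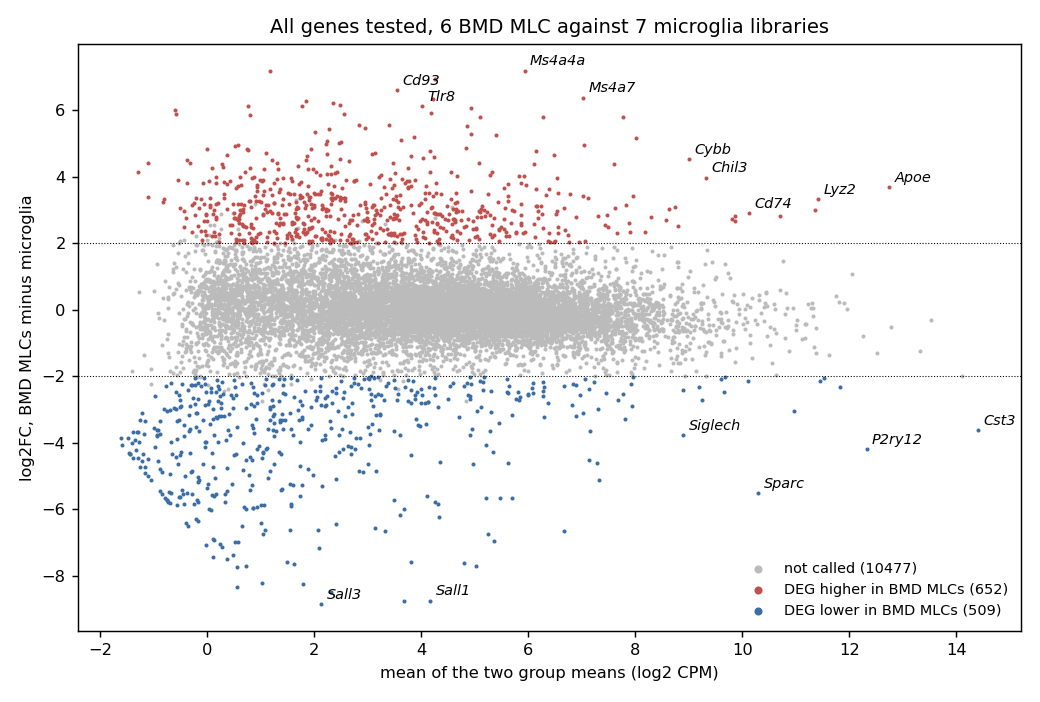
Each dot is 1 of the 11638 genes tested, with the mean of the 2 group means (log2 CPM) on the horizontal axis and the log2FC, BMD MLCs minus microglia, on the vertical axis. Red dots are DEGs higher in BMD MLCs, blue dots DEGs lower, and dotted lines mark a log2FC of 2 in either direction. The edge of dots at the lower left is set by the lowest value, where BMD MLC libraries hold no detected transcript.

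The study's own list of microglial identity genes was lower in BMD MLCs than in microglia. Of its 10 genes 7 were DEGs, all lower, at a median log2FC of -2.37 beside -0.03 over all genes. The study chose the list, so its direction is not independent evidence. P2ry12, the ADP receptor that steers microglial processes to injury, was at 8.11, 10.72 and 11.39 log2 CPM in BMD MLCs and 14.15, 14.41 and 14.84 in microglia (log2FC -4.20, SE 0.44, adjusted p 2.9e-06). The groups do not overlap, and the 2 lowest BMD MLC libraries are replicates 1 (8.11) and 2 (9.43). Sparc, a secreted matrix-binding protein, was at 5.65, 8.00 and 8.52 against 12.71, 13.02 and 13.53 (log2FC -5.52, SE 0.40, adjusted p 6.53e-08), and again BMD MLC replicates 1 and 2 were lowest. Siglech, a sialic acid-binding lectin, was at 6.48, 7.06 and 7.38 against 10.52, 10.81 and 11.18 (log2FC -3.77, SE 0.16, adjusted p 2.12e-10). All 6 BMD MLC libraries lay within 1 log2 unit of each other and far below the microglia. Measured as median CPM, BMD MLCs held 7.82% of the microglial level of P2ry12, 7.47% of Siglech and 3.09% of Sparc.

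Other members of the list lay closer to the microglial level. Gpr34, a lysophosphatidylserine receptor, was at 9.21, 10.99 and 11.67 in BMD MLCs and 12.67, 12.83 and 13.58 in microglia (log2FC -2.33, SE 0.35, adjusted p 9.9e-05). Its 2 lowest BMD MLC libraries are again replicates 1 and 2, and without them the log2FC is -1.81, short of the limit. P2ry13, another ADP receptor, ran from 9.63 to 10.96 (median 10.52) against 12.06 to 12.98 (median 12.62) (log2FC -2.14, SE 0.23, adjusted p 3.64e-06), with no overlap; without BMD MLC replicate 1 it is at -1.99, just under the limit in size, and without replicates 1 and 2 at -1.89. Olfml3, a secreted protein, was at 5.98 to 8.61 (median 7.88) against 9.51 to 10.88 (median 10.24) (log2FC -2.41, SE 0.36, adjusted p 9.64e-05), and without BMD MLC replicates 1 and 2 at a log2FC of -1.95. Of the 10 genes, 4 were called lower without those 2 libraries, 8 without microglia replicates 4 and 5, and 9 without these and BMD MLC replicate 3. The sign stayed negative for 9 genes in each of those fits, and Fcrls turned to 0.19 without BMD MLC replicates 1 and 2.

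Tmem119, a surface protein used to tell microglia from other macrophages, was at 7.74, 9.88 and 10.49 against 9.51, 12.10 and 13.06 (log2FC -1.95, SE 0.62, adjusted p 0.0262). Here the groups overlap through microglia replicates 4 (9.52) and 5 (9.51); without them the log2FC is -2.79 (adjusted p 0.000214), a DEG. It also passes the limit without microglia replicate 4 alone (-2.30) or 5 alone (-2.30), and without BMD MLC replicate 2 (-2.09), 5 (-2.12) or 6 (-2.03). Other fits miss the p limit: without BMD MLC replicate 3 (log2FC -1.57, adjusted p 0.0553), without BMD MLC replicates 1 and 2 (adjusted p 0.0504), with same-numbered libraries as blocks (0.0616) and with microglia replicates 8 and 9 (0.0609). Fcrls, an Fc receptor-like protein, was at 7.41 to 10.55 (median 9.74) in BMD MLCs and 8.79 to 11.08 (median 9.87) in microglia (log2FC -0.52, SE 0.48, adjusted p 0.455). The Fcrls values overlap widely.

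**Figure D2:**
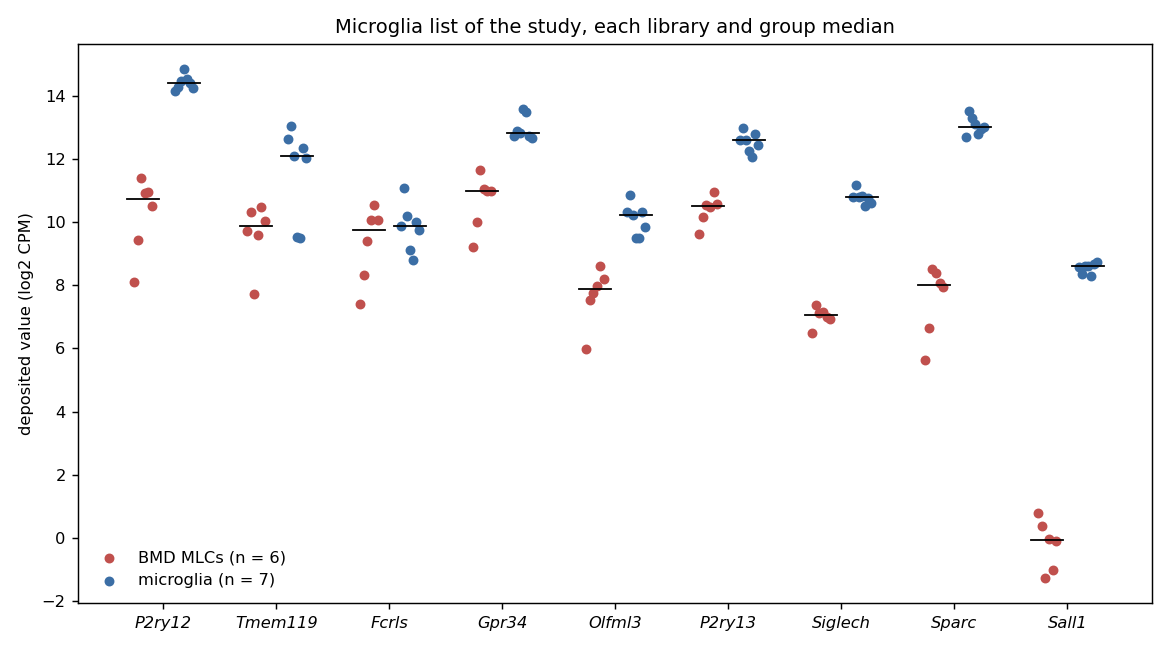
Deposited log2 CPM of 9 genes of the study's microglia list, with 1 dot for each library (red, 6 BMD MLC libraries; blue, 7 microglia libraries; within a group, left to right by replicate number) and a bar at the group median. Sall1 shows the widest gap and Fcrls the most overlap. The 2 low microglia dots of Tmem119 are replicates 4 and 5.

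Among the largest differences on the lower side were 2 transcription factors of one family. Sall1, the zinc finger factor that maintains microglial identity, was at -1.26, -0.07 and 0.79 in BMD MLCs and 8.31, 8.60 and 8.74 in microglia (log2FC -8.76, SE 0.29, adjusted p 3.4e-11). Every BMD MLC library is under 1 log2 CPM and every microglia library above 8. Sall3, its paralogue, was at -3.07, -2.24 and -1.37 against 5.80, 6.61 and 6.96 (log2FC -8.86, SE 0.31, adjusted p 5.19e-11), also without overlap. Sall3 is under 1 CPM in all 6 BMD MLC libraries, so it could pass the filter on low values only through microglia. That fixed its direction, and nothing is concluded from its lower call. Of 18 transcription factors tested from a microglial list, Sall1 and Sall3 were the lower DEGs, 1 was higher and 15 were not called (16.7% called, beside 9.98% of all genes; median log2FC -0.66). Bhlhe40, a helix-loop-helix factor of activated myeloid cells, was the higher one, at 2.08 to 5.42 (median 4.97) against 0.32 to 2.09 (median 1.36) (log2FC 3.15, SE 0.48, adjusted p 0.000137). Its values just touch, because BMD MLC replicate 3 sits at 2.08. Irf8, needed for microglial development, was at 7.76 to 8.21 (median 7.92) against 7.78 to 9.28 (median 8.76) (log2FC -0.60, SE 0.23, adjusted p 0.0619), and Mef2a at 7.30 to 8.11 (median 7.74) against 7.56 to 8.41 (median 8.11) (log2FC -0.35, SE 0.16, adjusted p 0.123). For both genes the groups overlap. Without microglia replicates 4 and 5 Irf8 is past the p limit though not the fold limit (log2FC -0.91, adjusted p 0.000288), and Mef2a is past neither (adjusted p 0.179).

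Of 28 further homeostatic microglia genes tested, 14 were DEGs and all were lower, at a median log2FC of -1.95; the count was 14 without microglia replicates 4 and 5 and 14 without BMD MLC replicates 1 and 2. Cst3, the secreted protease inhibitor cystatin C and the most abundant transcript of every microglia library, was at 11.79, 12.88 and 12.99 in BMD MLCs and 15.74, 16.27 and 16.60 in microglia (log2FC -3.63, SE 0.30, adjusted p 2.68e-07). Even their nearest libraries are more than 2 log2 units apart. Slc2a5, the fructose transporter GLUT5, was at -0.61, 1.43 and 2.57 against 7.39, 9.18 and 9.94 (log2FC -7.70, SE 0.54, adjusted p 4.9e-08), so that BMD MLCs held 0.472% of the microglial median CPM. Gpr56, an adhesion receptor, was at -0.67 to 2.25 (median 1.15) against 7.09 to 9.71 (median 8.83) (log2FC -7.61, SE 0.48, adjusted p 1.61e-08). In microglia, replicates 4 and 5 were the lowest for both, still far above every BMD MLC library. Jam2, a junctional adhesion molecule, was at -1.32 to 0.83 (median 0.15) against 7.46 to 7.83 (median 7.57) (log2FC -7.60, SE 0.28, adjusted p 5.8e-11), and Nav3, a microtubule-associated protein, at 0.65 to 3.06 (median 1.93) against 7.81 to 9.21 (median 8.53) (log2FC -6.73, SE 0.35, adjusted p 2.28e-09).

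Lag3, an inhibitory receptor, was at -1.03 to 2.37 (median 0.60) in BMD MLCs and 4.08 to 8.06 (median 6.88) in microglia (log2FC -5.73, SE 0.70, adjusted p 1.38e-05). Selplg, the selectin ligand PSGL-1, was at 8.36, 9.58 and 10.11 against 11.23, 12.88 and 13.26 (log2FC -3.04, SE 0.39, adjusted p 2.19e-05). Its 2 lowest microglia libraries are replicates 4 (11.24) and 5 (11.23), and without them the log2FC is -3.54. Some homeostatic genes were not called. Csf1r, the receptor that the hosts lack and the donors carry, was at 9.62, 11.06 and 11.43 in BMD MLCs and 10.09, 11.57 and 11.997 in microglia (log2FC -0.47, SE 0.38, adjusted p 0.387), with overlap; without microglia replicates 4 and 5 its log2FC is -0.91 (adjusted p 0.0341), and without these and BMD MLC replicate 3 it is -0.68 (adjusted p 0.0322). Ctss, the protease cathepsin S, was at 13.19 to 13.48 (median 13.42) against 13.49 to 14.06 (median 13.63) (log2FC -0.30, SE 0.20, adjusted p 0.289), just below in all 6 without passing the test, and P2ry6, a UDP receptor, at 6.91 to 8.54 (median 8.34) against 6.86 to 8.80 (median 8.30) (log2FC 0.15, SE 0.35, adjusted p 0.795). Cx3cr1, the fractalkine receptor, was at 9.98 to 11.73 (median 11.05) against 10.68 to 13.28 (median 12.77) (log2FC -1.35, SE 0.44, adjusted p 0.0289), past the p limit but not the fold limit. The adjusted p is 0.0739 without BMD MLC replicates 1 and 2 and 0.0614 without BMD MLC replicate 3. Without microglia replicates 4 and 5 the log2FC is -1.92 (adjusted p 0.000306), and without these and BMD MLC replicate 3 it is -1.72 (adjusted p 0.000185). Trem2, a lipid-sensing receptor, was lower in all 6 BMD MLC libraries, at 9.93 to 10.73 (median 10.36) against 10.84 to 12.001 (median 11.12), also short of the fold limit (log2FC -0.86, SE 0.21, adjusted p 0.00519).

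On the other side stand genes known from macrophages of marrow origin. Of 28 tested, 26 were DEGs higher in BMD MLCs and none was lower (median log2FC 4.54); part of this list comes from work on the same kind of transplants, so it is not independent evidence. Msr1, a scavenger receptor, was at 7.67, 7.92 and 8.46 in BMD MLCs and 1.71, 2.27 and 2.57 in microglia (log2FC 5.79, SE 0.17, adjusted p 2.64e-11). Vcam1, an adhesion molecule, was at 5.84, 7.45 and 9.62 against -0.58, 0.89 and 1.80 (log2FC 6.93, SE 0.53, adjusted p 1.21e-07), with BMD MLC replicates 1 (9.62) and 6 (8.86) highest. Both genes separate the groups by several log2 units. Cybb, the catalytic subunit of the phagocyte oxidase, was at 11.02 to 11.83 (median 11.21) against 6.13 to 8.23 (median 6.53) (log2FC 4.53, SE 0.30, adjusted p 2.32e-08). Lyz2, lysozyme, was at 12.77 to 13.34 (median 13.11) against 9.17 to 10.61 (median 9.56) (log2FC 3.34, SE 0.24, adjusted p 5.96e-08). Runx3, a transcription factor of blood lineages, was at 4.16 to 5.93 (median 4.66) in BMD MLCs and -2.24 to -0.33 (median -1.16) in microglia (log2FC 6.13, SE 0.38, adjusted p 1.43e-08), under 1 CPM in all 7 of the latter. Runx3 could pass the filter only through BMD MLCs, which fixed its direction, so nothing is concluded from its call. Tmem176a and Tmem176b, 2 membrane proteins, were the members not called, at log2FC 1.31 and 1.44.

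The MS4A family of 4-pass membrane proteins was higher almost throughout: 7 of 8 members tested were DEGs, all higher, the other was at a log2FC of 1.66 (Ms4a6d), and the median was 4.12. Ms4a4a had the largest log2FC of any gene tested, at 8.96, 9.36 and 10.64 in BMD MLCs and 1.56, 2.70 and 3.33 in microglia (log2FC 7.20, SE 0.34, adjusted p 7.33e-10). Ms4a7 was at 8.61, 10.66 and 11.29 against 2.54, 4.15 and 5.00 (log2FC 6.38, SE 0.49, adjusted p 1.23e-07), with BMD MLC replicates 1 and 2 lowest in their group. Ms4a14 was at 3.67 to 6.08 (median 4.67) against -3.62 to -1.41 (median -2.15) (log2FC 7.17, SE 0.48, adjusted p 2.53e-08), and all 7 microglia are under 1 CPM. It could pass the filter only through BMD MLCs, which fixed its direction, so nothing is concluded from its call. For all 8 members every BMD MLC library is above every microglia library. Not all were absent from microglia: Ms4a6b was already at 7.29 to 7.91 (median 7.49) in microglia and reached 9.80 to 10.39 (median 9.96) (log2FC 2.51, SE 0.15, adjusted p 1.05e-08). Ms4a6c was at 9.51 to 10.20 (median 9.70) against 5.14 to 5.73 (median 5.38) (log2FC 4.37, SE 0.15, adjusted p 3.4e-11).

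Promoter windows of 3 genes lower in BMD MLCs and 3 MS4A genes are shown. The first set is microglial identity, where 7 of the 10 genes had a RefSeq promoter; the second is the MS4A family, where 8 of 9 had one and these 3 had the largest log2FC. They are RefSeq windows of 300 bases on GRCm38.p6, 5′ to 3′ on the gene's strand: P2ry12 chr3:59262936-59263235 (- strand), Sall1 chr8:89044113-89044412 (- strand), Siglech chr7:55767934-55768233 (+ strand), Ms4a4a chr19:11375238-11375537 (+ strand), Ms4a14 chr19:11314405-11314704 (- strand), Ms4a7 chr19:11336097-11336396 (- strand). Capitals mark GAGGAA, the core letters bound by PU.1, the main myeloid factor of the ETS family, searched on both strands (so TTCCTC also counts). 9289 of 32851 windows (28.3%) hold it. Over the first window of each matched gene it is in 35% of 483 higher DEGs, 28.6% of 353 lower DEGs and 27.2% of 8588 genes tested. A match describes the letters only and is not a binding site; windows with no capitals lack these letters here.
P2ry12: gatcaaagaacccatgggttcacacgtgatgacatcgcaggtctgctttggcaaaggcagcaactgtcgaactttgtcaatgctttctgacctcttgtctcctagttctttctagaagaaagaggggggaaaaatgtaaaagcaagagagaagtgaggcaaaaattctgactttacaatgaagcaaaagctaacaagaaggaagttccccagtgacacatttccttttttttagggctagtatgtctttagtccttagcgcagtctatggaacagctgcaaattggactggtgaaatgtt
Sall1: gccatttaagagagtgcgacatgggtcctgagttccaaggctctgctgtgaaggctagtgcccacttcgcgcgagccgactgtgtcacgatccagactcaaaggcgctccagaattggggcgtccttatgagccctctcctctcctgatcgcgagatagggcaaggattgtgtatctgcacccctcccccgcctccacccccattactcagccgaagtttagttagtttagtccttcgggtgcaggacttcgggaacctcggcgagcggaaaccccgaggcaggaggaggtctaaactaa
Siglech: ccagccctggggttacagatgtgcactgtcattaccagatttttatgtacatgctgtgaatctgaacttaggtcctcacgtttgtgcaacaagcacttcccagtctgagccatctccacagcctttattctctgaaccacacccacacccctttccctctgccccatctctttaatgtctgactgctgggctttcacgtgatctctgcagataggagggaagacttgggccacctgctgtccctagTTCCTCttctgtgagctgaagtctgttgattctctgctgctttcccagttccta
Ms4a4a: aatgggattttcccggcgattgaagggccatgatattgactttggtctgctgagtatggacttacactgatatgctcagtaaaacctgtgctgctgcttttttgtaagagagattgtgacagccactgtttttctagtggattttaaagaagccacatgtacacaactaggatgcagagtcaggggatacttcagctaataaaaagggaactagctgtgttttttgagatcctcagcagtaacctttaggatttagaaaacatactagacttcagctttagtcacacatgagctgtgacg
Ms4a14: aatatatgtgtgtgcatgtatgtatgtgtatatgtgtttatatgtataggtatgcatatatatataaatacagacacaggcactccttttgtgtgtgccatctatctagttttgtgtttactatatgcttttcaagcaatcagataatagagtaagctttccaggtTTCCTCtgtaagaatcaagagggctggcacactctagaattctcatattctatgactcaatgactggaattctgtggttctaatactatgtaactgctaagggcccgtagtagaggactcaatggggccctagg
Ms4a7: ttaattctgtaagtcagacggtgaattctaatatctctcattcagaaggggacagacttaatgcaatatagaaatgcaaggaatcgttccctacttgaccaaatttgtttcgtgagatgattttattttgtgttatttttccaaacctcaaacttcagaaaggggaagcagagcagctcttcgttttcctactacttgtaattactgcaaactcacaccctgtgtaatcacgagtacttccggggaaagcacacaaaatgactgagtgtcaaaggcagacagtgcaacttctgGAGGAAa

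Innate receptors split by family. Of 12 C-type lectins tested, 8 were DEGs, all higher (median log2FC 2.74). Clec4n, which encodes dectin-2, was at 6.73, 7.98 and 8.15 in BMD MLCs and -0.13, 2.32 and 3.24 in microglia (log2FC 5.54, SE 0.49, adjusted p 5.42e-07). Clec12a, an inhibitory lectin, was at 7.52 to 9.43 (median 9.13) against 3.52 to 5.45 (median 4.05) (log2FC 4.65, SE 0.34, adjusted p 6.54e-08), and Clec7a, dectin-1, at 6.91 to 7.72 (median 7.34) against 2.61 to 3.96 (median 3.19) (log2FC 4.07, SE 0.21, adjusted p 2.28e-09). No library of either group crosses into the other for these 3. Among 11 Toll-like receptors, 2 were higher and 1 lower (median log2FC 0.21). Tlr8, an endosomal RNA sensor, was at 6.51, 7.20 and 7.29 against 0.27, 1.01 and 2.01 (log2FC 6.13, SE 0.28, adjusted p 5.21e-10). Tlr3, the sensor of double-stranded RNA, went the other way, at 0.96 to 3.68 (median 2.78) against 4.61 to 6.33 (median 5.43) (log2FC -2.79, SE 0.40, adjusted p 7.33e-05). Tlr2 was at 7.30 to 8.43 (median 8.25) against 4.80 to 6.66 (median 6.19) (log2FC 2.08, SE 0.29, adjusted p 5.53e-05). Its log2FC is under the limit without microglia replicate 4 (1.88), replicate 5 (1.98) or both (1.72). The same holds without BMD MLC replicates 1 and 2 (1.98), and without microglia replicates 4 and 5 and BMD MLC replicate 3 (1.88). The Toll-like receptor median turns to -0.02 without microglia replicates 4 and 5.

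Tlr7 and Tlr4 were not called, at log2FC 0.21 and 0.29. In the Siglec family 2 of 7 were lower and none was called higher: besides Siglech, Siglecf was at 2.02 to 2.98 (median 2.70) in BMD MLCs and 4.60 to 5.96 (median 5.60) in microglia (log2FC -2.80, SE 0.27, adjusted p 1.38e-06). The Siglec median was 0.94. It is 0.57 without microglia replicates 4 and 5 and turns to -1.96 at a mean CPM above 5. Without microglia replicates 4 and 5, and also without BMD MLC replicates 1 and 2, 1 Siglec gene was called higher and 2 lower. Leaving out microglia replicates 4 and 5 and BMD MLC replicate 3 gave 1 higher and 3 lower. Siglec1 (log2FC 1.90) passes the limit without microglia replicates 4 and 5 (2.04), microglia replicate 4 (2.01) or BMD MLC replicate 3 (2.01). It also passes without microglia replicates 4 and 5 and BMD MLC replicate 3 (2.14), and with microglia replicates 8 and 9 (2.02). Without BMD MLC replicates 1 and 2 Siglec1 is at 1.66 and is not the gene called higher. Siglecg (-1.96) passes it without BMD MLC replicate 2 (-2.06), 3 (-2.48) or 5 (-2.06) or microglia replicate 7 (-2.02), and without microglia replicates 4 and 5 and BMD MLC replicate 3 (-2.42). None of 6 Fc receptor genes was a DEG in limma, with a median log2FC of 0.02; 2 of them had an adjusted p below 0.05. The closest to the limit in that list was Fcgr4, an activating receptor, at 2.57 to 4.25 (median 3.79) against 1.49 to 2.84 (median 1.74) (log2FC 1.61, SE 0.31, adjusted p 0.00096). With microglia replicates 8 and 9 it is called (log2FC 2.19, adjusted p 0.00839).

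Genes of antigen presentation through MHC class II were mostly higher. Of 9 class II pathway genes tested, 5 were higher DEGs and 1 lower (median log2FC 2.43). Cd74, the invariant chain, was at 11.07, 11.46 and 12.39 in BMD MLCs and 8.42, 8.71 and 9.09 in microglia (log2FC 2.90, SE 0.21, adjusted p 6.97e-08). H2-Aa, a class II alpha chain, was at 7.63, 8.98 and 9.62 against 3.75, 5.48 and 6.16 (log2FC 3.44, SE 0.39, adjusted p 6.46e-06). Both separate the groups, and BMD MLC replicates 1 (7.91) and 2 (7.63) are the lowest of their group for H2-Aa. Ciita, the coactivator of the class II genes, was at 2.03 to 3.44 (median 2.90) against -0.44 to 1.53 (median 0.38) (log2FC 2.43, SE 0.33, adjusted p 4.55e-05). Its call is lost on a log2(CPM + 1) scale. H2-Oa, a subunit of the inhibitory H2-O molecule, was the lower one, at 1.26 to 3.35 (median 2.42) against 4.61 to 5.57 (median 5.16) (log2FC -2.74, SE 0.30, adjusted p 5.31e-06). With microglia replicates 8 and 9 it is not called (log2FC -1.84, adjusted p 0.285). Of 17 class I genes 1 was a DEG (5.88%, beside 9.98% of all genes), 13 had a log2FC above 0 and the median was 0.43. Without microglia replicates 4 and 5 that median is 0.22. The heavy chains H2-D1 (log2FC 1.79, SE 0.42, adjusted p 0.00378) and H2-K1 (log2FC 1.41, SE 0.34, adjusted p 0.00499) were higher in BMD MLCs but under the fold limit, which H2-D1 passes with microglia replicates 8 and 9 (2.12), and B2m, the shared light chain, was at 10.49 to 10.90 (median 10.81) against 10.57 to 11.20 (median 10.88) (log2FC -0.12, SE 0.15, adjusted p 0.613).

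Interferon-stimulated genes were divided. 12 of 37 tested were higher DEGs, none was lower and 25 were not called, at a median log2FC of 1.44. Ifi203 was at 5.41, 6.30 and 6.47 in BMD MLCs and -0.30, 1.43 and 1.59 in microglia (log2FC 5.12, SE 0.32, adjusted p 1.34e-08). Oas1a, an enzyme that senses double-stranded RNA, was at 4.63 to 5.58 (median 5.17) against 0.58 to 2.45 (median 1.45) (log2FC 3.69, SE 0.31, adjusted p 3.21e-07), and Slfn2 at 7.39 to 8.46 (median 8.12) against 3.09 to 5.03 (median 4.55) (log2FC 3.64, SE 0.30, adjusted p 2.26e-07). In these 3 genes no BMD MLC library falls to the microglial range. Ifitm3, which blocks viral entry, was at 6.27 to 6.97 (median 6.88) against 3.69 to 4.86 (median 4.50) (log2FC 2.33, SE 0.19, adjusted p 1.95e-07). Igtp, an interferon-gamma-induced GTPase, was at 5.77 to 6.60 (median 6.46) against 6.16 to 6.72 (median 6.49) (log2FC -0.09, SE 0.15, adjusted p 0.716), with overlap.

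Among 15 cytokine and chemokine genes tested, 7 were higher and 1 lower (median log2FC 1.70); 2 were lower without microglia replicates 4 and 5, and also without BMD MLC replicates 1 and 2. Cxcl16, a membrane-bound chemokine, was at 7.46, 7.80 and 8.13 in BMD MLCs and 3.24, 4.04 and 4.26 in microglia (log2FC 3.82, SE 0.18, adjusted p 5.21e-10). Il1b, the inflammatory cytokine, was at 3.59 to 4.73 (median 4.30) against 0.27 to 1.36 (median 1.06) (log2FC 3.36, SE 0.27, adjusted p 2.13e-07), without overlap. Ccl12, a ligand of CCR2, varied widely: 5.63, 9.80 and 11.02 against 4.99, 6.40 and 6.88 (log2FC 3.07, SE 0.68, adjusted p 0.00275). BMD MLC replicate 1 lies inside the microglial range. Ccl9, a monocyte chemoattractant, was the lower one, at 4.58 to 6.27 (median 5.26) against 8.80 to 9.36 (median 8.93) (log2FC -3.65, SE 0.23, adjusted p 1.45e-08). Il6, Il10, Cxcl2, Nos2 and Ptgs2 did not pass the filter on low values and were not tested.

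The complement genes show both directions. The 3 chains of C1q, which tags synapses and debris, were not called: C1qb was at 11.23, 12.12 and 12.39 in BMD MLCs and 10.84, 11.98 and 12.68 in microglia (log2FC 0.20, SE 0.31, adjusted p 0.665). C1qa was lowest in microglia replicates 4 (9.20) and 5 (9.22) and in BMD MLC replicate 3 (9.50); its log2FC was 0.05 with these 3 libraries and -0.31 without them. C3ar1, the C3a receptor, was at 10.12, 10.27 and 10.45 against 6.99, 7.19 and 7.62 (log2FC 3.08, SE 0.13, adjusted p 2.01e-10), tight in both groups. C3 itself was at 4.87 to 6.80 (median 6.59) against 1.75 to 4.55 (median 3.10) (log2FC 3.04, SE 0.44, adjusted p 8.03e-05). In all, 3 higher, 1 lower and 8 not called of 12 tested, at a median log2FC of 0.58 that falls to 0.13 without microglia replicates 4 and 5.

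Purinergic genes went in both directions, with 3 higher, 3 lower and 3 not called of 9 tested. Without microglia replicates 4 and 5 there were 2 higher and 3 lower, and the median of 0.15 turns to -0.29 (-0.03 without replicate 4 alone, -0.04 without 5 alone); without BMD MLC replicates 1 and 2 there were 3 and 2. Adora3, an adenosine receptor, was at 2.60, 3.27 and 4.22 in BMD MLCs and 7.78, 7.87 and 8.35 in microglia (log2FC -4.61, SE 0.24, adjusted p 2.18e-09). Like P2ry12 and P2ry13 it was lower in every BMD MLC library. Nt5e, the CD73 enzyme that makes adenosine from AMP, was higher: 3.32, 5.26 and 5.58 against -0.82, 0.41 and 1.59 (log2FC 4.49, SE 0.45, adjusted p 2.04e-06). P2ry14, a receptor for UDP-glucose, was at 2.76 to 4.07 (median 3.52) against -3.62 to 1.07 (median 0.03) (log2FC 4.24, SE 0.75, adjusted p 0.000454). P2rx4, an ATP-gated channel, was at 6.92 to 8.08 (median 7.90) against 4.72 to 6.32 (median 5.88) (log2FC 2.04, SE 0.25, adjusted p 1.76e-05). Its log2FC is under the limit without BMD MLC replicate 4 (1.99) or 6 (1.98), microglia replicate 4 (1.87) or 5 (1.98), or both of the latter (1.77). P2rx7, another such channel, was at 7.55 to 8.07 (median 7.70) against 7.21 to 7.95 (median 7.48) (log2FC 0.22, SE 0.14, adjusted p 0.281), with overlap and no call.

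Genes that carry lipid out of the cell were partly higher, and genes that make sterols mostly did not pass the limits. Of 13 efflux and lipoprotein genes tested, 5 were higher DEGs and none was lower (median log2FC 1.39). Apoe, the main brain apolipoprotein, was the most abundant transcript of 5 of the 6 BMD MLC libraries, at 12.76, 14.80 and 16.25 against 7.92, 11.15 and 12.51 in microglia (log2FC 3.69, SE 0.78, adjusted p 0.00194). The nearest libraries are BMD MLC replicate 2 (12.76) and microglia replicate 2 (12.51), and microglia replicate 4 is lowest of all (7.92). Apoc4, its neighbour in the same gene cluster, was at 4.16 to 7.33 (median 5.09) against -2.32 to 0.78 (median -0.71) (log2FC 6.22, SE 0.57, adjusted p 8.11e-07), and Pltp, a phospholipid transfer protein, at 5.54 to 6.58 (median 6.24) against 0.02 to 2.54 (median 1.46) (log2FC 4.62, SE 0.41, adjusted p 5.42e-07). Abca1, the cholesterol exporter, was above microglia in every BMD MLC library but under the fold limit (log2FC 1.86, SE 0.16, adjusted p 3.12e-07). Of 12 sterol synthesis genes, 1 was a lower DEG (8.33%, beside 9.98% of all genes called) and 11 were not called; their median was -0.89. Every BMD MLC library was below every microglia library for 6 of the 12, and for 1027 of the 11638 genes tested. Msmo1, a methylsterol oxidase, was at 5.93 to 6.97 (median 6.25) against 7.30 to 7.77 (median 7.42) (log2FC -1.12, SE 0.19, adjusted p 0.000359).

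Of 12 scavenger and phagocytic receptor genes tested, 4 were higher and 1 lower (median log2FC 0.18, or 0.39 without BMD MLC replicates 1 and 2). Axl, a receptor for dying cells, was at 7.46, 7.97 and 8.41 in BMD MLCs and 0.18, 2.08 and 2.93 in microglia (log2FC 6.08, SE 0.35, adjusted p 6.88e-09). Mertk, a receptor of the same family, was at 7.08 to 7.99 (median 7.30) against 7.84 to 8.29 (median 8.25) (log2FC -0.74, SE 0.16, adjusted p 0.00203), not called, and Pros1, a bridging ligand of MERTK, was lower at 6.84 to 8.39 (median 8.13) against 10.36 to 10.84 (median 10.67) (log2FC -2.72, SE 0.22, adjusted p 2.42e-07). Stab1, another scavenger receptor, was at 8.52 to 9.07 (median 8.87) against 6.19 to 7.18 (median 6.31) (log2FC 2.30, SE 0.18, adjusted p 1.21e-07).

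Of 13 TGF-beta pathway genes tested, 2 were lower (15.4% called, beside 9.98% of all genes) and none was called higher (median log2FC -0.58). Tgfbr1, the type I receptor, was at 9.89, 10.10 and 10.24 in BMD MLCs and 10.43, 10.87 and 11.21 in microglia (log2FC -0.78, SE 0.17, adjusted p 0.00199), lower in all 6 but under the fold limit, and Tgfbr2 at 7.61 to 8.32 (median 7.97) against 7.14 to 7.89 (median 7.60) (log2FC 0.46, SE 0.17, adjusted p 0.048). Bmpr1a, a receptor for bone morphogenetic proteins, was at -2.64 to 4.28 (median 2.16) against 4.22 to 5.33 (median 4.76) (log2FC -3.18, SE 0.77, adjusted p 0.00505), with a wide spread in BMD MLCs. Eng, a TGF-beta co-receptor, was at 1.23 to 4.49 (median 4.30) against 4.39 to 7.02 (median 6.44) (log2FC -2.25, SE 0.58, adjusted p 0.00798); BMD MLC replicate 3 is far below the rest (1.23), and without it the log2FC is -1.73, no longer past the limit. Among 6 receptors for colony-stimulating factors and related cytokines, 1 was higher (16.7%, beside the same 9.98%): Csf2ra, the GM-CSF receptor alpha chain, at 4.48 to 7.60 (median 5.57) against 0.04 to 5.41 (median 2.49) (log2FC 2.95, SE 0.68, adjusted p 0.00349). Kit and Il3ra did not pass the filter and were not tested. Bmpr1a and Csf2ra each overlap through 1 library, BMD MLC replicate 3 (4.28) and microglia replicate 7 (5.41).

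Genes that microglia raise in disease models went in both directions: 5 higher, 1 lower and 13 not called of 19 tested, at a median log2FC of 0.24 that turns to -0.04 without microglia replicates 4 and 5. The DEGs are 31.6% of this list, beside 9.98% of all genes. Apoe, Axl and Clec7a, above, were among the higher ones. Spp1, osteopontin, was at 8.29, 8.69 and 10.27 in BMD MLCs and 5.42, 6.20 and 6.38 in microglia (log2FC 2.85, SE 0.29, adjusted p 2.15e-06), and Lgals3, galectin-3, at 6.51 to 7.93 (median 7.26) against 3.13 to 5.20 (median 4.20) (log2FC 2.97, SE 0.32, adjusted p 4.59e-06). Neither overlaps. Cd9, a tetraspanin of the same set, was at 8.01 to 9.18 (median 8.79) against 9.65 to 10.57 (median 9.96) (log2FC -1.36, SE 0.20, adjusted p 0.000112), lower in every BMD MLC library without a call. Csf1, the ligand of CSF1R, was lower, at -3.62 to 0.81 (median 0.06) against 1.94 to 3.10 (median 2.28) (log2FC -2.89, SE 0.61, adjusted p 0.00196). With microglia replicates 8 and 9 it is not called (adjusted p 0.0928), nor is it on a log2(CPM + 1) scale.

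Markers of macrophages at the brain's borders, the meninges and vessels, were mostly higher: 12 higher, 1 lower and 8 not called of 21 tested (median log2FC 2.29). Mrc1, the mannose receptor CD206, was at 10.34, 10.66 and 11.03 in BMD MLCs and 3.07, 5.16 and 6.25 in microglia (log2FC 5.80, SE 0.46, adjusted p 1.5e-07). Cd163, the haemoglobin-haptoglobin receptor, was at 4.58, 5.68 and 6.71 against -2.90, 0.05 and 2.62 (log2FC 5.46, SE 0.76, adjusted p 5.34e-05). Pf4, a chemokine, was at 5.84 to 8.65 (median 7.97) against -0.09 to 4.40 (median 2.98) (log2FC 5.29, SE 0.73, adjusted p 5.24e-05), and Dab2, an endocytic adaptor, at 9.07 to 10.03 (median 9.45) against 2.81 to 5.86 (median 4.76) (log2FC 4.96, SE 0.41, adjusted p 2.42e-07). All 6 BMD MLC libraries exceed all 7 microglia for these 4. Cd209f, a lectin, was lower, but microglia run from -3.62 to 5.53 and the groups overlap (log2FC -5.02, SE 1.21, adjusted p 0.00487). Cd209f passed the filter in only 17 of 25 other settings, and did not pass it without microglia replicates 4 and 5. With microglia replicates 8 and 9 it is not called (log2FC -3.91, adjusted p 0.0504). Its lower call thus depends on which microglia are included, and nothing is concluded from it. Maf, a transcription factor shared by microglia and border macrophages, was at 8.88 to 9.77 (median 9.30) against 8.63 to 9.91 (median 9.08) (log2FC 0.16, SE 0.21, adjusted p 0.601). The list summed to 4380, 5990 and 7000 CPM in BMD MLCs and 641, 849 and 1360 CPM in microglia, with Mrc1 most abundant and no member under 1 CPM in all libraries. Whether the BMD MLC libraries hold cells from the borders was not tested.

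**Figure D3:**
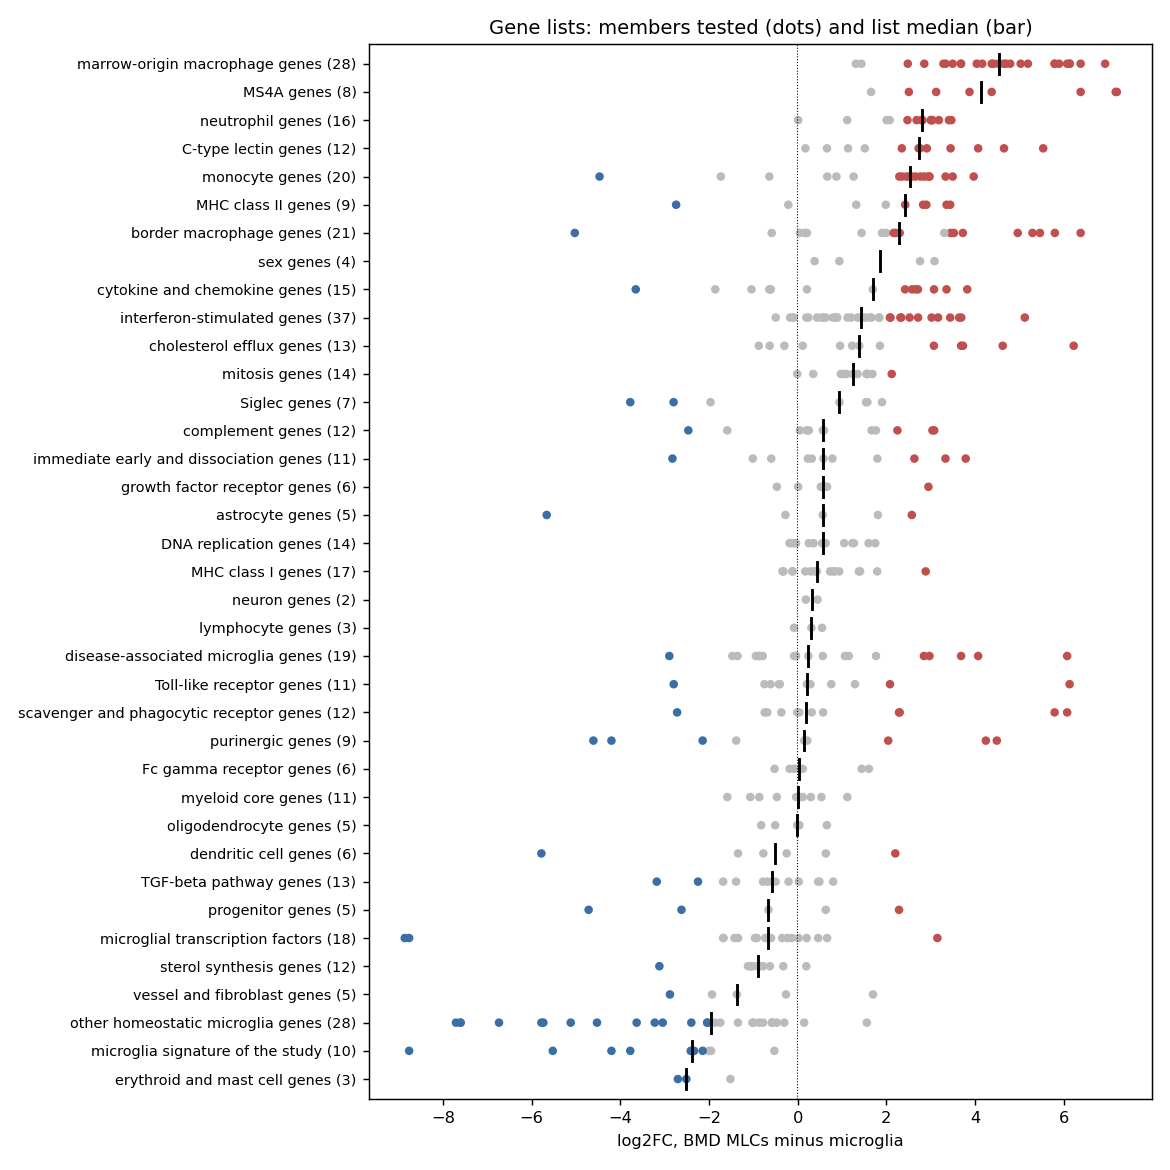
Every gene list examined, ordered by its median log2FC (bar), with 1 dot for each member tested (number in brackets). Red and blue dots are DEGs higher and lower in BMD MLCs, grey dots were not called, and the dotted line is the median over all genes tested. Dots of genes with every BMD MLC library at the lowest value, such as Ace among the monocyte genes, have no meaningful fold. Genes in more than 1 list appear more than once.

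Neutrophil genes were also higher. 12 of 16 were DEGs, all higher (median log2FC 2.81), and the list summed to 5440, 34800 and 36400 CPM in BMD MLCs and 1590, 2480 and 7000 CPM in microglia. Ngp, a granule protein, is its most abundant gene. The sum is 9060 and 5440 CPM in BMD MLC replicates 1 and 2, and 34000, 36200, 36400 and 35600 in replicates 3 to 6; microglia replicates 1 (5000) and 5 (7000) are the highest of their group. S100a8, a calcium-binding protein of neutrophils and monocytes, was at 10.23, 12.68 and 13.19 against 7.75, 9.15 and 10.37 (log2FC 2.81, SE 0.53, adjusted p 0.000793). The groups overlap through BMD MLC replicate 2 and microglia replicate 5. Lcn2, lipocalin-2, was at 6.49 to 8.92 (median 8.35) against 3.80 to 5.55 (median 4.37) (log2FC 3.47, SE 0.41, adjusted p 1.19e-05), and Cxcr2, a neutrophil chemokine receptor, at 6.23 to 8.29 (median 7.83) against 3.45 to 5.17 (median 4.14) (log2FC 3.18, SE 0.38, adjusted p 1.05e-05). Csf3r, the G-CSF receptor, was at 6.83 to 8.05 (median 7.60) against 5.77 to 8.57 (median 7.83) (log2FC 0.01, SE 0.47, adjusted p 0.987), a gene that microglia also express. Without BMD MLC replicates 1 and 2, which hold the least of these transcripts, 14 of 16 were higher at a median of 3.67. No member is under 1 CPM in all libraries. The part of neutrophils in the results was not tested.

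Most monocyte genes were higher as well, with 14 higher, 1 lower and 5 not called of 20 tested (median log2FC 2.54); without BMD MLC replicates 1 and 2, 13 were higher. Chil3, a chitinase-like protein of monocytes and neutrophils, was at 9.85, 11.63 and 12.36 in BMD MLCs and 6.45, 7.41 and 8.57 in microglia (log2FC 3.97, SE 0.43, adjusted p 4.04e-06). Ccr2, the chemokine receptor of classical monocytes, was at 6.96, 7.25 and 7.70 against 3.86, 4.39 and 4.87 (log2FC 2.86, SE 0.19, adjusted p 3.43e-08). Ly6c2, the surface marker of the same monocytes, was at 4.91 to 7.37 (median 7.04) against 2.58 to 4.70 (median 3.71) (log2FC 2.97, SE 0.46, adjusted p 0.000148). All 3 separate the groups completely. Ace, which encodes angiotensin-converting enzyme, is the lower one. It is listed at the lowest value in all 6 BMD MLC libraries and at -0.35 to 1.82 (median 1.07) in microglia. It could pass the filter only through microglia, which fixed its direction, so nothing is concluded from its call. On a log2(CPM + 1) scale it is not called. The list summed to 8510, 12700 and 17100 CPM in BMD MLCs and 830, 1040 and 2350 CPM in microglia, and Lyz2, which macrophages share, is its most abundant gene; no member is under 1 CPM throughout. How much of this comes from monocytes in the sorted gate was not tested.

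Marker genes of neurons, oligodendrocytes and astrocytes were also summed in each library. Of 9 neuron genes measured, 2 passed the filter, and the sum was 0.868, 6.25 and 9.17 CPM in BMD MLCs and 1.65, 3.26 and 11.4 CPM in microglia (most abundant Snap25; Rbfox3, Tubb3 and Slc17a7 under 1 CPM in all). Of 5 oligodendrocyte genes tested none was a DEG in limma and none had an adjusted p below 0.05; the sums were 41.5, 103 and 135 and 51.6, 134 and 194 CPM, led by Cnp, with Mog, Olig1, Olig2 and Cspg4 under 1 CPM. The astrocyte list held 2 DEGs of 5, in opposite directions. Slc1a3, the glutamate transporter GLAST, was at 2.05, 2.28 and 2.91 in BMD MLCs and 7.37, 8.17 and 8.44 in microglia (log2FC -5.66, SE 0.19, adjusted p 3.4e-11). It is the most abundant gene of that list, which summed to 25, 31.7 and 43.4 CPM against 172, 295 and 359, while Aqp4 is under 1 CPM in all. Gfap, the intermediate filament of astrocytes, was higher in BMD MLCs, at 1.42 to 3.03 (median 2.19) against -3.15 to 0.53 (median -0.01) (log2FC 2.57, SE 0.54, adjusted p 0.0017). On a log2(CPM + 1) scale Gfap is not called.

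Of the vessel and fibroblast genes 5 were tested and 1 was lower, Kdr, a VEGF receptor, at -1.97 to -0.75 (median -1.59) against 0.81 to 2.11 (median 1.43) (log2FC -2.88, SE 0.35, adjusted p 1.23e-05). Kdr is under 1 CPM in all BMD MLC libraries and could pass the filter only through microglia. That fixed its direction, so nothing is concluded from its call, which is lost on a log2(CPM + 1) scale. The vessel and fibroblast list summed to 13.1, 29.6 and 33.1 CPM in BMD MLCs and 44.7, 54.8 and 74.2 CPM in microglia, led by Pecam1, with Cldn5, Cdh5, Tek, Vtn, Kcnj8, Col1a2, Dcn and Lum under 1 CPM. Lymphocyte genes summed to 9.05, 13.3 and 18.5 and 4.69, 12.7 and 16.3 CPM, led by Nkg7, with no DEG in limma among 3 tested, at adjusted p of 0.375 or more. Erythroid and mast cell genes summed higher in microglia, at 198, 833 and 4550 CPM against 15.3, 253 and 571, led by Hba-a1. Hba-a1, a haemoglobin chain, was at 3.01 to 8.29 (median 6.98) in BMD MLCs and 6.72 to 11.46 (median 8.80) in microglia (log2FC -2.70, SE 0.81, adjusted p 0.0189), with microglia replicate 5 highest. It is not called without BMD MLC replicates 1 and 2 (log2FC -2.12, adjusted p 0.0535) or without microglia replicates 4 and 5 (log2FC -2.26, adjusted p 0.0506). Mcpt4 and Tpsb2 were under 1 CPM. Dendritic cell genes summed to 35.7, 92.4 and 167 against 45.3, 59.4 and 108 CPM, led by Cd209a and with Clec9a under 1 CPM; 1 higher, 1 lower and 4 not called of 6 tested (median log2FC -0.51). Cd209a, a lectin, is the higher one (log2FC 2.20, SE 0.55, adjusted p 0.00648), and without BMD MLC replicate 3 its log2FC is 1.88. The part of these cells in the results was not tested.

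**Figure D4:**
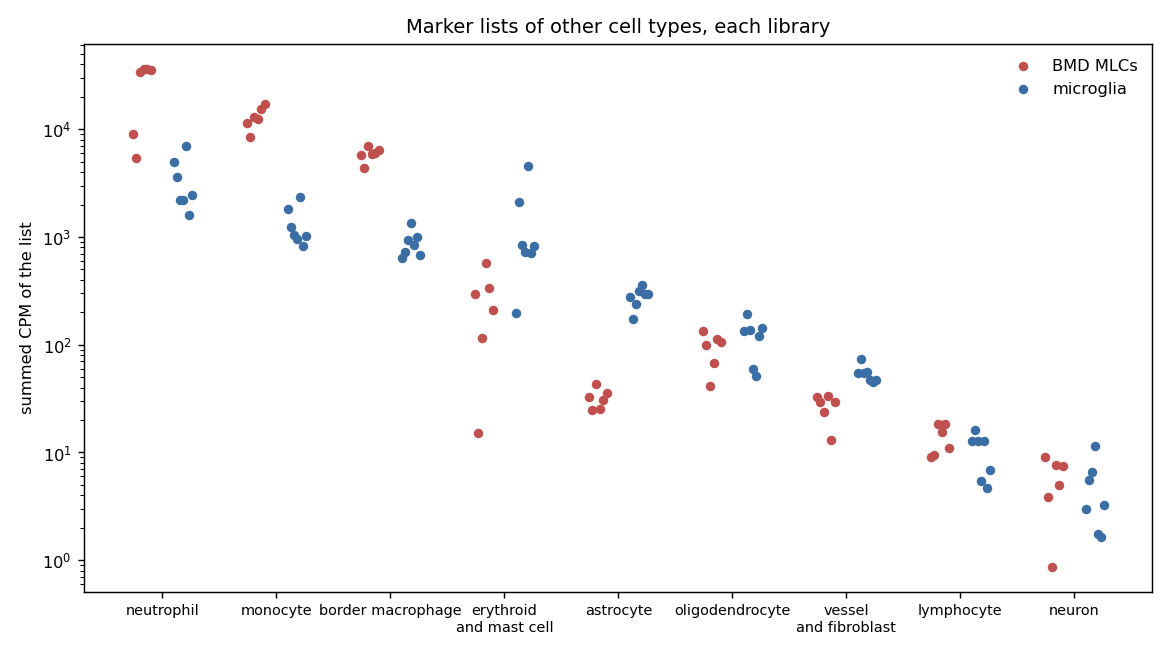
Summed CPM of 9 marker lists of other cell types, on a log scale, with 1 dot for each library (red, BMD MLCs; blue, microglia; left to right by replicate number). The neutrophil sums of BMD MLC replicates 1 and 2 lie near those of microglia, and replicates 3 to 6 form a tight group above them. The sums for astrocytes rest on Slc1a3, and those for erythroid cells on Hba-a1.

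Genes that cell isolation can switch on went in both directions: 3 higher, 1 lower and 7 not called of 11 tested (median log2FC 0.58). Fos, an immediate early factor, was at 4.71, 5.71 and 6.99 in BMD MLCs and 1.32, 2.16 and 3.61 in microglia (log2FC 3.33, SE 0.41, adjusted p 1.65e-05). Egr1, another one, was lower, at -3.62 to 0.15 (median -1.64) against 0.26 to 2.56 (median 1.18) (log2FC -2.82, SE 0.57, adjusted p 0.00127). Neither overlaps between the groups. The call of Egr1 is lost on a log2(CPM + 1) scale. Junb was at 3.62 to 5.15 (median 4.83) against 1.89 to 5.79 (median 4.29) (log2FC 0.58, SE 0.59, adjusted p 0.507). Of 14 mitosis genes 1 was a DEG (7.14%, beside 9.98% of all genes; median log2FC 1.26). It is Mki67, at 3.41 to 5.69 (median 4.61) against 1.61 to 3.81 (median 2.21) (log2FC 2.12, SE 0.43, adjusted p 0.00136), and without BMD MLC replicate 3, BMD MLC replicate 5 or microglia replicate 2 its log2FC is 1.92, 1.93 or 1.96. Without BMD MLC replicates 1 and 2, 5 mitosis genes were called higher, at a median of 1.93. None of 14 DNA replication genes was a DEG in limma (median log2FC 0.56), though Mcm4, a helicase subunit, had an adjusted p of 0.0254 at log2FC 0.57; 1 was called higher without BMD MLC replicates 1 and 2.

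Of 11 genes of marrow progenitors measured, 5 passed the filter and were tested, with 1 higher, 2 lower and 2 not called; Hoxb8, Hoxa9 and Mecom were under 1 CPM in all 13 libraries. Myb, a transcription factor of progenitors, was the higher one, at -1.80 to 3.58 (median 2.90) against -1.50 to 1.55 (median -0.11) (log2FC 2.29, SE 0.83, adjusted p 0.0471), with overlap. Its call is lost without any one of BMD MLC replicates 1 and 3 to 6 or microglia replicates 1 to 3, 6 and 7 (adjusted p 0.0579 to 0.102). Hlf, a stem cell factor, was lower in BMD MLCs, at -3.62 to 1.89 (median -0.60) against 3.01 to 4.84 (median 4.33) (log2FC -4.71, SE 0.89, adjusted p 0.000806), and so was Meis1, at -1.89 to 2.96 (median 0.90) against 3.00 to 3.69 (median 3.33) (log2FC -2.62, SE 0.55, adjusted p 0.00192). Without BMD MLC replicates 1 and 2 Meis1 is at a log2FC of -1.98, under the limit in size. It is also not called on a log2(CPM + 1) scale. Cd34 was at 4.41 to 6.63 (median 5.19) against 4.87 to 6.66 (median 6.05) (log2FC -0.66, SE 0.33, adjusted p 0.155), with overlap; the adjusted p is 0.0289 without microglia replicates 4 and 5 and 0.0258 without BMD MLC replicates 1 and 2. The list summed to 48, 61.5 and 113 CPM in BMD MLCs and 60.9, 96.8 and 144 CPM in microglia, led by Cd34. Y-linked genes differ between libraries. Ddx3y was at -0.13 in BMD MLC replicate 3 and 6.63 to 7.91 in the other 5, and at 6.23 to 7.48 in microglia replicates 1 to 3 and -0.43 to 0.49 in replicates 4 to 7. None of the 4 sex genes was a DEG in limma (median log2FC 1.85), but Ddx3y reaches a log2FC of 4.33 (adjusted p 0.0335) without BMD MLC replicate 3. Sex was not tested as a part of any other result.

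Among the largest remaining differences, Cd93, a receptor on myeloid cells and endothelium, was at 5.81, 7.04 and 7.43 in BMD MLCs and -0.32, 0.29 and 0.73 in microglia (log2FC 6.61, SE 0.28, adjusted p 2.47e-10). Cd38, an enzyme that consumes NAD, was at 7.12, 7.25 and 8.23 against -0.22, 1.15 and 2.11 (log2FC 6.34, SE 0.39, adjusted p 1.34e-08), with BMD MLC replicate 1 well above the rest. Pla2g7, a phospholipase that inactivates platelet-activating factor, was at 10.01 to 11.76 (median 10.40) against 4.68 to 6.40 (median 5.30) (log2FC 5.17, SE 0.29, adjusted p 5.06e-09). All 3 separate the groups. Col14a1, a collagen, was at 4.26 to 6.12 (median 4.74) against -3.62 to -0.12 (median -0.83) (log2FC 6.27, SE 0.52, adjusted p 2.42e-07), and Adam19, a metalloprotease, at 5.02 to 6.24 (median 5.62) against -2.33 to 0.72 (median -0.94) (log2FC 6.16, SE 0.46, adjusted p 9.09e-08). Col14a1 is under 1 CPM in all microglia libraries and could pass the filter only through BMD MLCs, which fixed its direction. Nrp1, a co-receptor for VEGF and semaphorins, was at 8.91 to 9.30 (median 9.09) against 6.32 to 6.95 (median 6.85) (log2FC 2.35, SE 0.13, adjusted p 4.71e-09), and Apobec1, a cytidine deaminase that edits RNA, at 8.94 to 9.53 (median 9.20) against 6.40 to 6.76 (median 6.56) (log2FC 2.61, SE 0.13, adjusted p 8.43e-10); both are tight within their groups. Arid5b, a chromatin factor, was at 2.99 to 4.99 (median 3.66) against -3.62 to 0.80 (median -3.62), mostly at the lowest value in microglia (log2FC 6.12, SE 0.72, adjusted p 9.46e-06).

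On the lower side, Sgce, a sarcoglycan, was at -1.81, -0.60 and 0.36 in BMD MLCs and 7.77, 7.90 and 8.57 in microglia (log2FC -8.77, SE 0.34, adjusted p 8.27e-11). Tmem204 was at -3.62 to -0.18 (median -2.86) against 5.03 to 6.50 (median 6.12) (log2FC -8.24, SE 0.57, adjusted p 3.78e-08), and Adamts16, a metalloprotease, at -3.62 to -2.77 (median -3.39) against 3.66 to 4.80 (median 4.49) (log2FC -7.74, SE 0.29, adjusted p 5.8e-11). Both Tmem204 and Adamts16 are under 1 CPM in all BMD MLC libraries, and all 3 are above 3 log2 CPM in all microglia. Tmem204 and Adamts16 could pass the filter only through microglia, which fixed their direction. The folds of these 2 are uncertain: across other settings Tmem204 ran from -8.68 to -5.67 and Adamts16 from -7.97 to -4.45. Ppap2a, a lipid phosphatase, was at -3.62 to -0.81 (median -2.24) against 4.23 to 6.29 (median 5.64) (log2FC -7.64, SE 0.44, adjusted p 5.75e-09). It too is under 1 CPM in all BMD MLC libraries, and its direction was fixed in the same way. Marcks, a protein at the membrane skeleton, and Cd81, a tetraspanin, were lower at a high level: Marcks at 8.53 to 9.50 (median 9.10) against 10.68 to 11.65 (median 11.18) (log2FC -2.15, SE 0.19, adjusted p 5.66e-07). Cd81 was at 10.14 to 10.67 (median 10.57) against 12.27 to 12.77 (median 12.52) (log2FC -2.04, SE 0.16, adjusted p 1.74e-07). Its log2FC is -1.97 without BMD MLC replicate 3 and -1.79 with microglia replicates 8 and 9, under the limit in size.

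A group of predicted genes on chromosome 14 is prominent among the lower DEGs. Gm3411 was at -3.62, -1.62 and -0.82 in BMD MLCs and 5.99, 6.46 and 7.27 in microglia (log2FC -8.48, SE 0.41, adjusted p 8.78e-10). Gm3095 is listed at the lowest value in all 6 BMD MLC libraries and was at 4.17 to 5.32 (median 4.81) in microglia. Both genes are under 1 CPM in all BMD MLC libraries and could pass the filter only through microglia, which fixed their direction. The log2FC of Gm3095 ran from -8.43 to -4.77 across the other settings. Of 37 genes tested from one end of that chromosome, all 33 predicted (Gm) genes were lower DEGs. Their median log2FC was -5.71, with a range of -8.48 to -3.12 in which folds at the lowest value are uncertain. This set was chosen after its values were seen, so its shared direction is not a test. Of the other 4 genes tested there, 3 were lower DEGs and 1 was not called. Some of the Gm genes may be similar copies, in which case reads of one can be assigned to another. Their sequences were not compared here, so they are not counted as separate observations. The level of any single copy is uncertain.

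**Figure D5:**
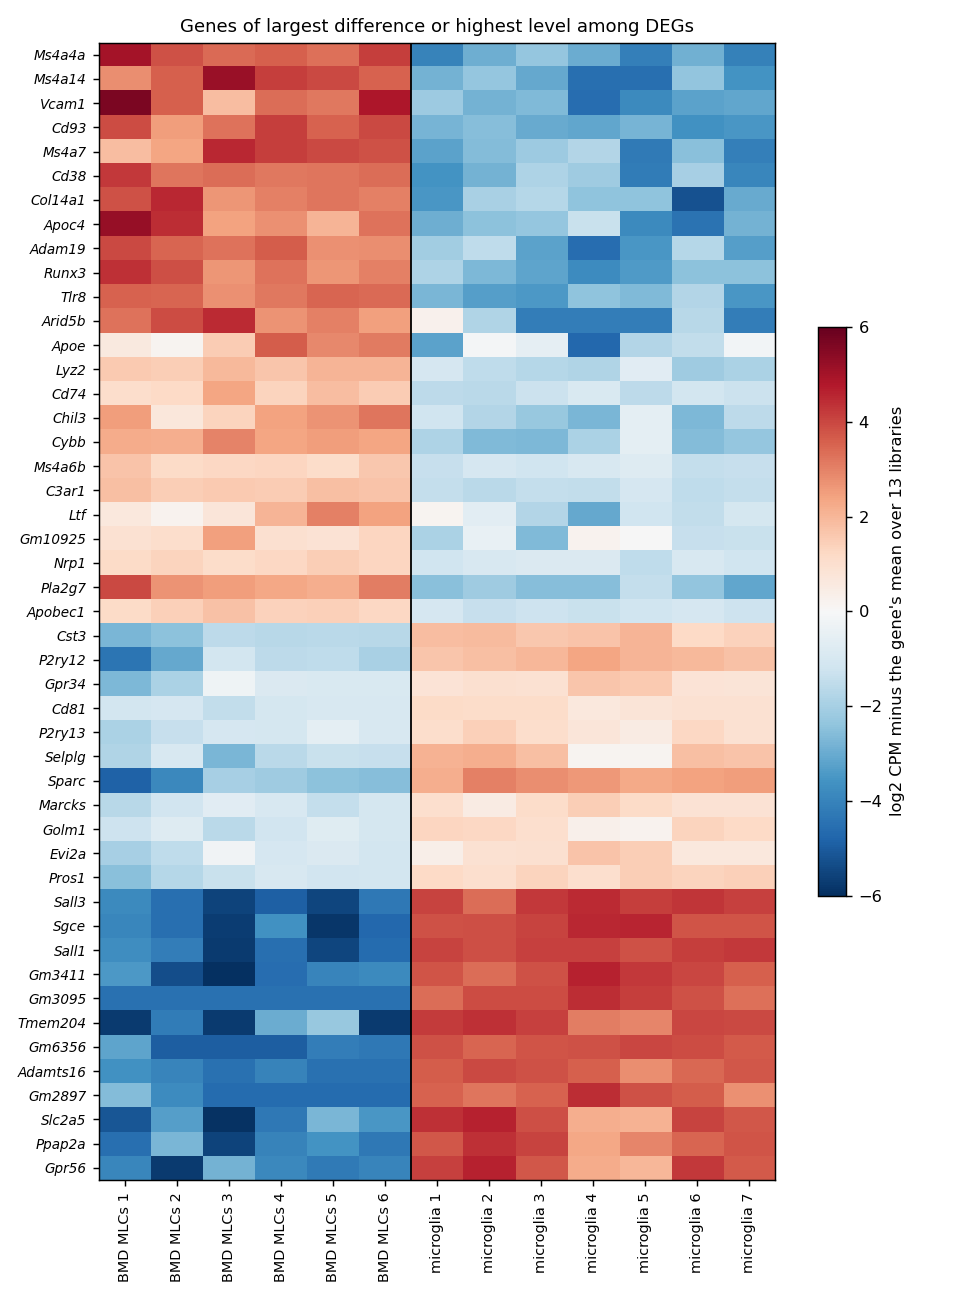
Log2 CPM of DEGs whose groups do not overlap, those with the largest log2FC and those with the highest mean level in each direction, minus each gene's mean over the 13 libraries (red above, blue below; the scale stops at 6 in either direction). BMD MLC libraries are left of the line and microglia right of it. P2ry12, Gpr34 and Sparc are lowest in BMD MLC replicates 1 and 2, and Selplg is lowest among microglia in replicates 4 and 5.

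BMD MLCs vary among themselves along several of these genes. Replicates 1 and 2 had the least P2ry12, Gpr34, Ms4a7, H2-Aa and neutrophil transcripts of the group. They also had the most F13a1, a factor XIII subunit and border macrophage gene: 10.27 and 8.63, against 7.24 to 8.46 in replicates 3 to 6. Apoe ran from 12.76 to 16.25. Replicate 3 was lowest for Tmem119 (7.74), C1qa (9.50) and Nrros (5.96), which helps to activate TGF-beta. Microglia replicates 4 and 5 were low for the same 3 genes: Nrros was at 4.69 and 4.14 there and its log2FC was 0.80 with these 3 libraries and 0.05 without them. What sets these libraries apart was not tested.

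The other transplanted cells of the series, ER-Hoxb8 MLCs (6 libraries, immortalized FVB progenitors in the same kind of host), give a second view of the same genes. Their library names are of 2 kinds, GFPHox and WTHox. The ranges below pool both, and a difference between them was not tested. Comparisons of each MLC type with microglia would share the microglia, so only the direct difference between the MLC types is tested. The BMD MLC libraries used to pick many named genes are also 1 side of that difference. A count among named genes is therefore not comparable with the share over all genes. The fit held 5 groups: both MLC types, microglia replicates 1 to 7, and marrow and ER-Hoxb8 macrophages grown in vitro. Those cultured ER-Hoxb8 macrophages came from FVB mice carrying Cas9. In this fit, 7.8% of genes tested differed between the MLC types, and of 275 genes eligible to be named, 59 did. Sall1 did not: ER-Hoxb8 MLCs were at -0.38 to 2.66 (median 0.79) (difference -1.12, SE 0.45, adjusted p 0.0777). Sall3 did, at -0.30 to 5.37 (median 4.90) in ER-Hoxb8 MLCs (difference -6.21, SE 0.67, adjusted p 3.55e-07), though it did not pass the filter when only those 2 groups were fitted. P2ry12 was higher in BMD MLCs, with ER-Hoxb8 MLCs at 4.76 to 10.57 (median 7.19) (difference 2.41, SE 0.82, adjusted p 0.0391), and so was Fcrls, at 1.49 to 9.21 (median 4.17) (difference 4.18, SE 1.143, adjusted p 0.0116). When only the 2 MLC groups were fitted, P2ry12 was no longer called (adjusted p 0.104), while Fcrls was (0.0293). Cd93 was at 0.07 to 4.57 (median 1.41) in ER-Hoxb8 MLCs (difference 4.90, SE 0.52, adjusted p 2.59e-07) and Cd163 at -2.35 to 2.57 (median 0.02) (difference 5.76, SE 0.90, adjusted p 6.73e-05), both higher in BMD MLCs.

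Some class II and interferon genes were lower in BMD MLCs than in ER-Hoxb8 MLCs. Cd74 was at 13.76 to 15.63 (median 14.77) in ER-Hoxb8 MLCs (difference -3.17, SE 0.29, adjusted p 3.06e-08) and Igtp at 8.54 to 11.33 (median 10.49) (difference -3.77, SE 0.31, adjusted p 4.23e-09). For Cybb, Msr1 and Axl no difference was called: the differences were -0.13, -0.59 and 0.51, each with an adjusted p above 0.05. Apoe was higher in BMD MLCs (ER-Hoxb8 MLCs 10.68 to 12.82 (median 11.69); difference 2.95, SE 0.76, adjusted p 0.00805). Ngp, from the neutrophil list, was also higher in BMD MLCs, with ER-Hoxb8 MLCs at 6.55 to 13.86 (median 9.05) (difference 3.15, SE 1.00, adjusted p 0.0266), but not called when only the 2 MLC groups were fitted (adjusted p 0.0903). A call here says that the 2 MLC types differ, and no call does not show that they are alike.

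Marrow macrophages grown in vitro for 7 days (3 libraries of the same strain, normalized in the same set) were also looked at; this difference was not tested. P2ry12 was at -1.60 to 3.31 there, Gpr34 at 0.89 to 3.58 and Siglech at -1.52 to 1.27, all under the BMD MLC range. Sall1 was at -2.97 to -1.75, also under it. Ms4a7 was at 9.04 to 11.23 and Cybb at 9.27 to 10.58, the first inside and the second below the BMD MLC range. Cd38 was at -1.22 to 1.06 in vitro, below every BMD MLC library, and Ccr2 at 1.38 to 2.08, under both. Lyz2 was at 15.03 to 15.64, above both.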

How the data were processed

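RNA from sorted brain cells was sequenced, and the authors trimmed reads with fastp, quantified transcripts with kallisto 0.46.0 against Ensembl release 99, and summed them to genes. The deposited values are log2 CPM, made by the authors with edgeR's TMM scaling and filtering, then limma. The table holds 29957 rows, 1 of them without a gene name, which was left out. Raw counts were not used here. At an assumed prior count of 2, the step between neighbouring low values puts library depth at 17 M to 30.5 M counts, and 1 count at the mean depth of 24.5 M is 0.0408 CPM.

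CPM was rebuilt by subtracting the lowest value on the linear scale. Genes above 1 CPM in at least 6 of the 13 libraries were tested with limma 3.58.1 in R 4.3.3 (2 groups, empirical Bayes with a mean trend), and p was adjusted by Benjamini-Hochberg over all of them. A gene under 1 CPM in every library of 1 group could pass only through the other, which fixed its direction. Counts of DEGs include such genes. The code was tested on simulated data. The difference between MLC types comes from a fit with 5 groups. Sums and figures used Python 3.11.15, numpy 2.4.6, pandas 2.3.3 and matplotlib 3.10.9.

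Named genes are the 10 of the study's microglia list, the 12 non-overlapping DEGs with the largest log2FC and the 12 with the highest mean level in each direction, and from each list the 6 DEGs with the largest log2FC and the 6 tested genes with the highest level. Genes named only as untested or under 1 CPM are further members of those lists. A few of these genes are not reported here, though counts, sums and medians include them. Members and lists were chosen with earlier results of these data known. Alternatives changed the filter, scale, normalization, weights, groups and libraries.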

Additional observations from a re-analysis of the deposited data

Results flagged for a closer look

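A library was compared with its own group for each of the named genes by Dixon's ratio: the gap to its nearest neighbour divided by the range of the group. 46 of 538 groups (8.55%) had a library past the 95% limit. Chance alone would be expected to put about 1 in 20 groups past it. Such a library was kept in every test. Ratios are given by library, each with the library's log2 CPM in brackets.

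BMD MLC replicate 1, highest of its group: Cd38 0.805 (8.23), Tlr7 0.861 (9.40).

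BMD MLC replicate 1, lowest of its group: H2-DMb2 0.813 (6.32), Ifi203 0.756 (5.41).

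BMD MLC replicate 2, highest of its group: Spp1 0.628 (10.27).

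BMD MLC replicate 2, lowest of its group: Fcgr4 0.693 (2.57), Myb 0.652 (-1.80).

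BMD MLC replicate 3, highest of its group: Aldoc 0.665 (4.95), Cybb 0.628 (11.83), Gm10925 0.724 (10.54), Xcr1 0.637 (2.40).

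BMD MLC replicate 3, lowest of its group: C1qa 0.674 (9.50), Cd81 0.667 (10.14), Ddx3y 0.84 (-0.13), Eif2s3y 0.871 (-1.28), Eng 0.898 (1.23), Igtp 0.71 (5.77), Kdm5d 0.702 (2.26), Mag 0.707 (2.89), Mobp 0.642 (-2.29), Nrros 0.719 (5.96), P2rx4 0.76 (6.92), P2ry6 0.812 (6.91), Siglece 0.713 (6.75), Tlr2 0.672 (7.30), Tlr4 0.698 (6.30), Tmem119 0.676 (7.74), Uty 0.691 (2.37).

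BMD MLC replicate 4, highest of its group: Csf2ra 0.633 (7.60).

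BMD MLC replicate 5, lowest of its group: Pecam1 0.628 (3.23).

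Microglia replicate 2, highest of its group: Adora3 0.586 (8.35), Pecam1 0.626 (6.07).

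Microglia replicate 2, lowest of its group: Mef2a 0.613 (7.56), Nfkbiz 0.622 (2.06), Sall3 0.608 (5.80).

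Microglia replicate 4, highest of its group: Tlr1 0.584 (5.55).

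Microglia replicate 4, lowest of its group: Cxcl16 0.764 (3.24).

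Microglia replicate 5, highest of its group: C3ar1 0.661 (7.62), Cybb 0.599 (8.23).

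Microglia replicate 5, lowest of its group: Gfap 0.661 (-3.15), H2-Aa 0.594 (3.75), H2-Ab1 0.578 (5.06), Serpinb8 0.606 (-3.30).

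Microglia replicate 7, highest of its group: Csf1 0.66 (3.10), Dusp1 0.609 (2.74).

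Microglia replicate 7, lowest of its group: Psmb8 0.645 (5.71).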

How the results depend on the processing

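Named genes were refitted under up to 25 other settings, as far as they passed the filter there (14 of the 144 named DEGs missed at least 1), and differences between MLC types under 2. Of those DEGs, 114 were called wherever they were tested, 30 were lost under at least 1 setting and none changed sign; of 131 named genes not called, 16 were called under at least 1. On a log2(CPM + 1) scale there were 473 higher and 334 lower DEGs, and at a mean CPM above 5 there were 475 and 300. On the log2(CPM + 1) scale 13 named DEGs lost their call, among them Ace, Ciita, Csf1, Egr1, Gfap, Kdr, Meis1, Mki67 and Myb. At a log2FC limit of 1, DEGs numbered 2358 (1298 higher, 1060 lower). Fits without a single library held 1108 to 1232 DEGs, 636 to 690 higher and 462 to 570 lower. The cause of these shifts was not tested, beyond the genes and limits that each setting itself changes. With microglia replicates 8 and 9 included there were 1236, and Cd209f, Cd81, Csf1, Eng and H2-Oa were among the calls lost. The MLC types differed in 45 named genes when only those 2 groups were fitted.

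Medians of 10 of 37 lists changed sign under at least 1 setting, 4 of them by more than the spread between libraries: progenitor genes 0.31 with no filter; astrocyte genes -0.0298 with microglia replicates 8 and 9 and -1.92 at a mean CPM above 5; Siglec genes -1.96 at a mean CPM above 5; and purinergic genes -0.29 without microglia replicates 4 and 5, a setting chosen after seeing the data. The other lists whose medians changed sign were Fc receptor, Toll-like receptor, disease-associated, core myeloid, neuron and oligodendrocyte genes.

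With the replicate block there were 1149 DEGs (649 higher, 500 lower). Deviations of libraries with the same replicate number had a mean correlation of -0.045 over 6 pairs (-0.29 to 0.24). Over 36 other pairs it was 0.018 (-0.39 to 0.43). For some BMD MLCs the replicate number differs from the number in the library name. Whether libraries share a batch or litter therefore cannot be told from these pairs.

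Deposited values limit the tests: counts, cell numbers and RNA quality per library were not used. Genes near the lowest value have uncertain folds. Litter, sex and sort day were not tested.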
